A study of Mus musculus with 3 samples.

Results

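The nuclear genes for the proteins of the mitochondrial ribosome and of the respiratory complexes were examined for MEIS2 peaks at their ends. Members were chosen by symbol alone, as protein-coding mouse genes named Mrpl or Mrps with a number, Nduf with a, b, c, s or v, Uqcr, Cox4 to Cox8, or Atp5. The rule gave 170 of 21887 protein-coding genes on chromosomes 1 to 19, X and Y. Of these, 78 carry symbols of mitochondrial ribosome proteins (49 Mrpl, named for the large subunit, and 29 Mrps, named for the small subunit). They are called mitochondrial ribosome genes by symbol, and the place of each product in the ribosome was not checked. The other 92 belong to the respiratory complexes and comprise 41 complex I genes (Nduf), 8 complex I assembly factors (Ndufaf), 8 complex III genes (Uqcr), 18 complex IV genes (Cox) and 17 ATP synthase genes (Atp5). MEIS2, a homeodomain factor of the TALE class, was the target of CUT&Tag, where a transposase held at the bound protein by an antibody cuts and tags nearby DNA. All libraries came from the lateral ganglionic eminence (LGE), the progenitor zone of the striatum, of CD1 embryos at day E14.5, with no genetic change or treatment given in the labels. There were 2 libraries made with a mouse polyclonal anti-MEIS2 antibody and 1 with no primary antibody, each from a bulk cell suspension. The labels do not say whether the MEIS2 libraries came from separate litters, so their spread may be technical.

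Mitochondria carry their own small genome, which encodes a handful of respiratory subunits and the RNAs of a dedicated ribosome. The remaining respiratory subunits and every protein of that ribosome are encoded in the nucleus, made in the cytosol and imported. Complexes I, III and IV pump protons while they pass electrons to oxygen, and ATP synthase uses the resulting gradient to make ATP. Promoters of these genes are known for sites of NRF1, of the ETS factor GABP, of YY1 and of SP1. TALE factors such as MEIS2 bind a short TGACAG element, alone or next to a site of their partner PBX.

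Promoter stretches of 9 members are printed first, because they show the letters that lie beside these peaks and how members differ. Each is the 180 bases just before the RefSeq start, on the gene's own strand, from the GRCm38.p6 build. Capitals mark exact matches, on either strand, to TGACAG (the MEIS core), GCGCATGCG (NRF1), CCGGAAG (ETS), AAGATGGC (YY1), GGGCGGG (SP) or CCAAT (NFY). TGATTGACA (MEIS with PBX) was searched as well, and it overlaps the MEIS core by 5 letters. For the mitochondrial ribosome, the large-subunit genes Mrpl41 (chr2:24975099-24975278) and Mrpl17 (chr7:105811088-105811267) and the small-subunit gene Mrps24 (chr11:5707702-5707881) are shown because they carried peaks of high fold enrichment.
Mrpl41: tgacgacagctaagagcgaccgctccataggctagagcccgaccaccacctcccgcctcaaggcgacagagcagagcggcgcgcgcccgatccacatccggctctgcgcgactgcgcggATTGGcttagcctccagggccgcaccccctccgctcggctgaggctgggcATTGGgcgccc
Mrpl17: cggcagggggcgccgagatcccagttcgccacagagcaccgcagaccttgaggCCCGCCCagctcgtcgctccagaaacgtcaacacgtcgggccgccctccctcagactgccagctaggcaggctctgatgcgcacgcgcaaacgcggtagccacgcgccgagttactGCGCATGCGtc
Mrps24: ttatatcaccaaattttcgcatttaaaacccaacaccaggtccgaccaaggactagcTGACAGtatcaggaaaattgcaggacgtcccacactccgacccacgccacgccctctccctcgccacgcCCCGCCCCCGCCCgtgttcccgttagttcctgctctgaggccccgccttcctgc
Mrpl41 held CCAAT on the reverse strand 11 and 61 bases before its start. Mrpl17 held the NRF1 letters 11 bases and an SP match 127 bases before its start. Mrps24 held a MEIS core 123 bases before its start and overlapping SP matches at 48 and 54.

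For the respiratory complexes, Ndufv2 (chr17:66101560-66101739), an iron-sulfur subunit of complex I, and Uqcrfs1 (chr13:30545317-30545496), the Rieske iron-sulfur protein of complex III, are shown for their strong peaks. Cox6a1 (chr5:115348959-115349138) and Cox8a (chr19:7217617-7217796) are the widely expressed forms of complex IV subunits. Cox8b (chr7:140900447-140900626) is the muscle form of the Cox8 subunit and carried no gene-end peak. Atp5e (chr2:174464102-174464281) encodes the epsilon subunit of ATP synthase.
Ndufv2: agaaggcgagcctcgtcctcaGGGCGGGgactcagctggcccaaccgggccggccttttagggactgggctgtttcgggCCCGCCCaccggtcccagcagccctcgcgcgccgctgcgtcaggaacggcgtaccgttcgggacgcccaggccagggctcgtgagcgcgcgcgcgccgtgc
Uqcrfs1: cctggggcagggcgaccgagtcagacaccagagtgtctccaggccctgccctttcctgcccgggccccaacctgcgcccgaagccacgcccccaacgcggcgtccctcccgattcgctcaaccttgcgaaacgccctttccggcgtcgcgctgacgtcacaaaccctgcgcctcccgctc
Cox6a1: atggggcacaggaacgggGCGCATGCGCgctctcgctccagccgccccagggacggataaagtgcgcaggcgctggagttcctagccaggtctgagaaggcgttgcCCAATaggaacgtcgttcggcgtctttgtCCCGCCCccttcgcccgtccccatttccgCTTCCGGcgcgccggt
Cox8a: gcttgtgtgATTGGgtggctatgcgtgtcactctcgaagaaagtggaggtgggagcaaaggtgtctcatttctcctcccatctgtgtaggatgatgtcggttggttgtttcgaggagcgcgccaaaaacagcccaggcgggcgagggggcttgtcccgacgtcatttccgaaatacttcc
Cox8b: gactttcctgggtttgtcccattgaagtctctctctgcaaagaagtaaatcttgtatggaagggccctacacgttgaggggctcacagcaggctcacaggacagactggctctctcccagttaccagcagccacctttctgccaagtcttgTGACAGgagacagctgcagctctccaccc
Atp5e: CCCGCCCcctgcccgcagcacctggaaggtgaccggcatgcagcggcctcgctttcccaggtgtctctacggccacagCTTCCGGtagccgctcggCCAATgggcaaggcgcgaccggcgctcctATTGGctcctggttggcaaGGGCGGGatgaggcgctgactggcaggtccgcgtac
Cox6a1 held NRF1 letters that match on both strands, 161 and 162 bases before its start, with an ETS match at 16. Atp5e held an ETS match at 102 and CCAAT at 55 and 84 bases before its start. Uqcrfs1, with the strongest peak of all members by the lower fold of the 2 replicates, held none of the 7 motifs in this stretch. Cox8b held a MEIS core 29 bases before its start and carried no peak. Of the 8 stretches from genes with a peak, 6 lay wholly inside the replicate 1 peak, that of Mrps24 lay inside it over 131 bases, and that of Cox8a lay outside. No match in a stretch says only that those letters are not in that window.

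The peak caller used 7618406 and 6559629 tags in the MEIS2 libraries and 6337375 in the no-antibody library, after repeated positions were dropped. It gave 78060, 82093 and 9869 peaks. Among the LGE marker genes, 10 of 15 had a reproducible gene-end peak, against 2 of 6 dorsal cortex markers and 4 of 9 markers of vessels and microglia, beside 52.4% of all protein-coding genes. Peaks do not measure expression, so these counts do not show which cells the libraries held.

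Most of the mitochondrial genes carried a MEIS2 peak at an end. A gene-end peak has its summit within 1 kb of either annotated end of the gene. It was called reproducible when the peaks of replicates 1 and 2 overlapped, by 1 bp or more, and the replicate 1 peak overlapped no peak of the no-antibody library. By this measure 119 of 170 members had one, 70.0% (95% Wilson interval 62.7 to 76.4, counting error only), against 52.4% of all protein-coding genes. Genes for cytosolic ribosomal proteins, the other large translation set, stood at 70.6%, or 60 of 85. The mitochondrial genes therefore stood above the all-gene share and beside the cytosolic ribosomal genes. Member genes were short, with a median of 7.29 kb against 17.2 kb for all. Among all protein-coding genes in the members' middle range of length, 3.84 to 12.1 kb, the share was 48.1%.

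Genes of the mitochondrial ribosome and of respiration had nearly the same share. In the mitochondrial ribosome 55 of 78 genes had a reproducible peak, 70.5% (59.6 to 79.5), and in the respiratory complexes 64 of 92, 69.6% (59.5 to 78.0). The difference of 0.948 percentage points is small beside the width of both intervals. These treat genes as independent counts and do not measure the spread between libraries. In replicate 1 the shares were 84.6% (66 genes) and 76.1% (70 genes), against 60.5% of all genes. In replicate 2 they were 71.8% (56 genes) and 71.7% (66 genes), against 55.4%. The difference between the gene groups was thus 8.53 points in one library and 0.0557 in the other, so it did not repeat. In the no-antibody library 0 members had a gene-end peak, against 0.27% of all genes (59 genes). The upper limit for the members was set at 1.76%, which is 3 counts in 170 genes and not a Wilson limit. No gene-end peak of a member in either MEIS2 library overlapped a no-antibody peak. Such overlap was rare over all genes too, at 33 of the 13248 with a replicate 1 gene-end peak. A no-antibody summit lay in or within 50 kb of 24 members (14.1%). No share over all genes is given for this window, so the count has no comparison. With 2 libraries against 1, no test across libraries was made.

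**Figure D1:**
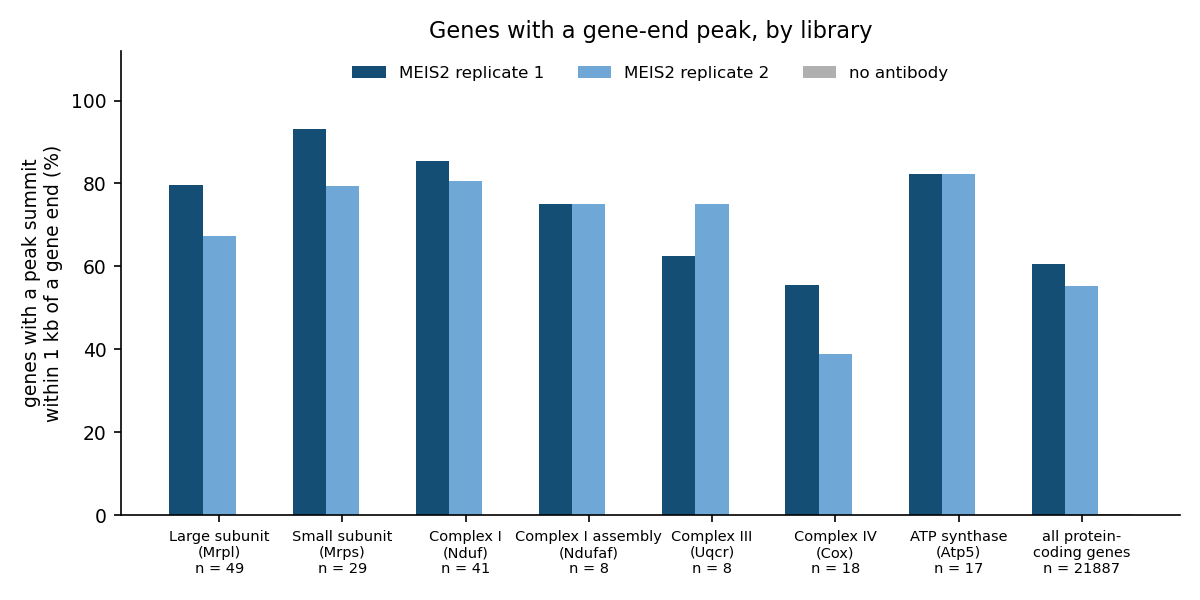
Percentage of genes with a peak summit within 1 kb of a gene end (vertical axis) in MEIS2 replicate 1, MEIS2 replicate 2 and the no-antibody library (bars), by gene class. MEIS2 bars stand at 38.9% or above in every member class, Cox genes have the lowest member bars in both replicates, and no member class has a no-antibody peak.

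The classes differed more among themselves than the groups did. Reproducible peaks were found at 32 of 49 Mrpl genes (65.3%) and 23 of 29 Mrps genes (79.3%). Among respiratory genes they were found at 32 of 41 Nduf genes (78.0%), 6 of 8 Ndufaf genes, 5 of 8 Uqcr genes, 7 of 18 Cox genes (38.9%) and 14 of 17 Atp5 genes (82.4%). Complex IV had the lowest share of any class, and it was below the all-gene share of 52.4%. Its Wilson interval, 20.3 to 61.4% and counting error only, still includes that share. Genes with a reproducible peak near a RefSeq start but near no annotated gene end, given below, are not counted here. They are Cox5a and Cox7a2, and Atp5g3, Mrps2 and Mrpl18 in other classes, so class shares depend in part on the gene-end rule. Shares by class and over all genes with such peaks added are not given. The intervals of Mrpl (51.3 to 77.1%) and Mrps (61.6 to 90.2%) overlap, and the difference between the ribosomal subunits was not tested.

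Peaks at members had lower and narrower medians than those at all genes. Fold enrichment is the caller's ratio of the pileup (extended tags stacked at the summit) to the pileup expected locally, with 1 added to each. The lower value of the 2 replicates had a median of 5.74 at mitochondrial ribosome genes and 5.74 at respiratory genes, against 6.38 at all protein-coding genes with such a peak. Cytosolic ribosomal protein genes also had 5.74, so this lower median was not particular to the members. By class, the median was 6.38 at Mrps, Uqcr and Cox genes, equal to that of all genes. It was 5.71 at Mrpl, 5.67 at Nduf, 4.72 at Ndufaf and 5.11 at Atp5 genes. Values above 6.38 were reached by 20 of 55 mitochondrial ribosome genes (36.4%) and 18 of 64 respiratory genes (28.1%). Values above 8.84, the 90th percentile of all genes, were reached by 2 and 1. In replicate 1 alone the medians were 7.64 and 7.69, against 7.72, so there the members were close to all genes. In replicate 2 both groups had 5.74, against 6.51. Each tag adds 0.638 to the replicate 2 fold wherever the local expectation is at its genome-wide floor, which was so at 52 of 119 members. Equal medians can therefore come from this step size.

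Width gave the same order against all genes and no stable order between the groups. The median replicate 1 peak spanned 496 bp at mitochondrial ribosome genes and 508.5 bp at respiratory genes, against 613 bp at all genes. In replicate 2 the medians were 416 and 373.5 bp, against 494 bp. Of the classes, only the 5 Uqcr genes with a peak had a wider replicate 1 median than all genes, at 679 bp. The wider group was thus respiration in replicate 1 and the mitochondrial ribosome in replicate 2. Cytosolic ribosomal genes had medians of 581 and 408.5 bp in replicates 1 and 2, also under those of all genes. At mitochondrial ribosome and respiratory genes the summits stacked a median of 15 and 14.5 tags in replicate 1, against 19 for all genes. In replicate 2 they stacked 10 and 9, against 12. Across the 119 members, fold enrichment in the MEIS2 libraries correlated with Pearson's r of 0.548 and Spearman's rho of 0.53, and width with 0.705 and 0.597. The points are genes and share the same libraries, so these describe how well the libraries rank members.

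**Figure D2:**
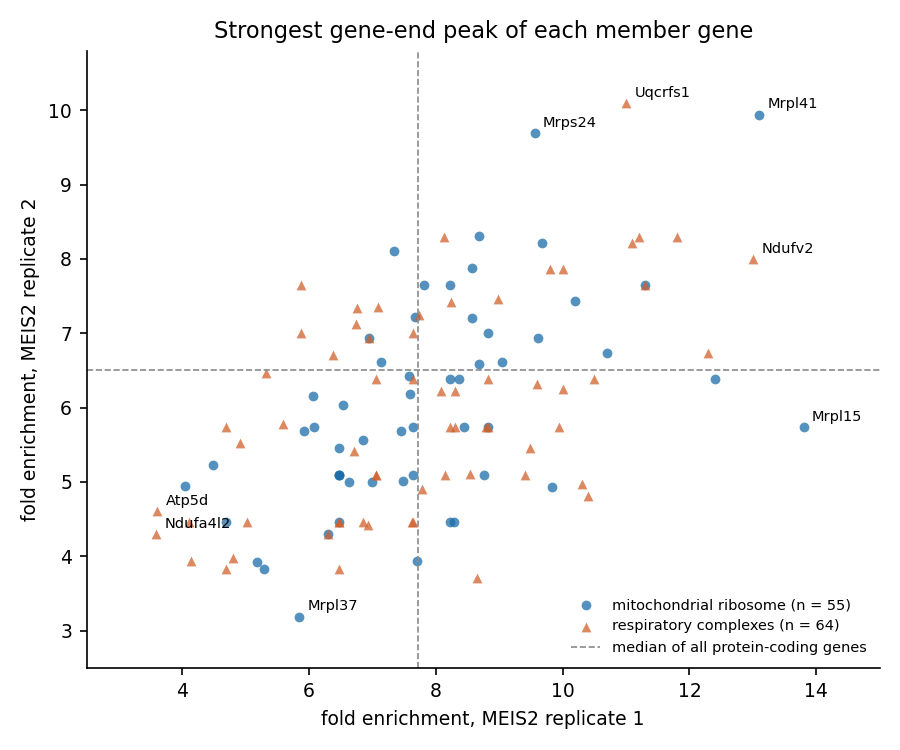
Fold enrichment in MEIS2 replicate 1 (horizontal) and replicate 2 (vertical) of the strongest reproducible gene-end peak of each member, as 1 point per gene for 55 mitochondrial ribosome genes and 64 respiratory genes. Dashed lines are the medians of all protein-coding genes with such a peak (7.72 and 6.51), and both groups fill the same range, with Mrpl41 and Uqcrfs1 high in both libraries.

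**Figure D3:**
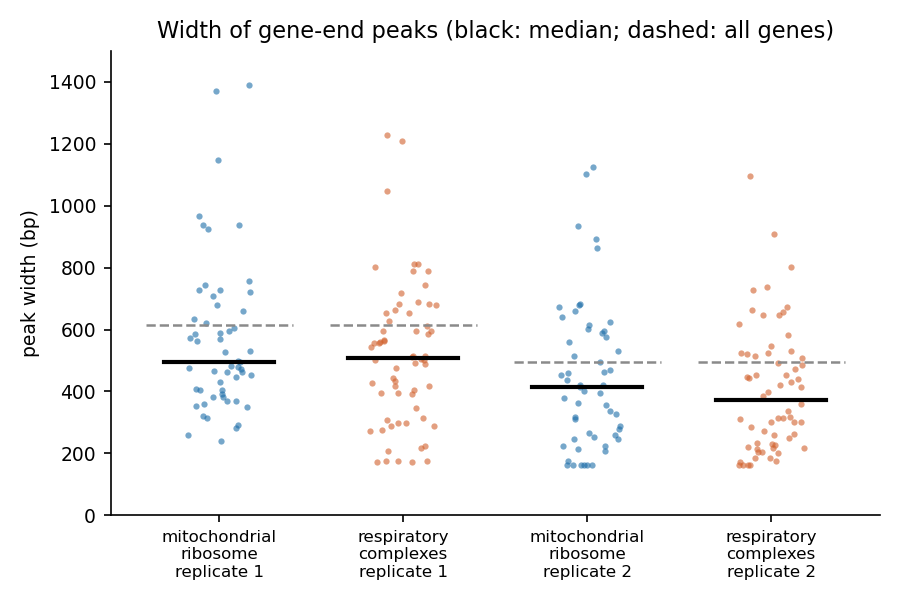
Width in bp (vertical) of the gene-end peak of each member in MEIS2 replicate 1 and replicate 2, by gene group, with black bars for medians and dashed lines for the median of all protein-coding genes (613 and 494 bp). All 4 member medians lie under their dashed line.

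The large subunit held the strongest peak of the mitochondrial ribosome set by the lower fold. Mrpl41 had fold enrichments of 13.1 and 9.94 in replicates 1 and 2, with pileups of 29 and 17 tags, at chr2:24974879-24975465. Its summit lay 84 bp upstream of the start and also within 1 kb of an end of Pnpla7, which encodes a lysophospholipase. Mrpl48 followed with 8.68 and 8.31 (chr7:100607412-100608557), beside Rab6a, a Golgi trafficking GTPase. Mrpl17 had 9.68 and 8.21, and its summit lay 1 bp inside the start. Mrpl9 had 8.57 and 7.88. These 4 were high in both libraries, whereas Mrpl15 reached 13.8 in replicate 1 and 5.74 in replicate 2. The weakest reproducible peaks were those of Mrpl37 (5.85 and 3.19) and Mrpl30 (5.29 and 3.83). Without a reproducible peak were 17 Mrpl genes, of which Mrpl1 and Mrpl10 are the first by name. Mrpl13 and Mrpl21 had a peak in replicate 1 alone, with folds of 4.70 and 5.76. Mrpl43 had a peak in each library, with folds of 4.97 and 7.51, but these did not overlap.

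Among the Mrps genes, Mrps24 had nearly equal folds of 9.56 and 9.69, with pileups of 25 and 20 (chr11:5707172-5707832). Its summit lay 132 bp inside the gene. Mrps30 (11.3 and 7.65), Mrps33 (7.82 and 7.65) and Mrps9 (10.2 and 7.43) came next, each with its summit inside the gene. The weakest were at 4.46 in replicate 2, which Mrps17, Mrps25 and Mrps36 shared, with 6.47, 4.70 and 8.29 in replicate 1. Mrps10 (6.97) and Mrps18a (5.29) had a peak in replicate 1 alone. By replicate 1 width, the widest peaks of the mitochondrial ribosome set were at large-subunit genes, namely Mrpl14 (1391 and 1125 bp), Mrpl40 (1371 and 576 bp) and Mrpl48 (1146 and 1103 bp). In replicate 2 the small-subunit genes Mrps6 (934 bp), Mrps26 (893 bp) and Mrps7 (864 bp) were wider than Mrpl40. Each of the 3 large-subunit genes lay next to another protein-coding gene, Tmem63b, Hira and Rab6a.

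Complex I, which takes electrons from NADH, had strong peaks at several kinds of subunit. Of its 7 core subunits 4 had a reproducible gene-end peak (57.1%), against 52.4% of all genes. Of the other 34 Nduf genes, counted without Ndufaf, 28 had one (82.4%). This difference was not tested. Ndufa4, first assigned to complex I and now regarded as a complex IV subunit, had folds of 11.8 and 8.29 (chr6:11907367-11908018), with its summit 387 bp upstream. Ndufab1, the mitochondrial acyl carrier protein, had 11.2 and 8.29 (chr7:122101322-122102004). The accessory subunit Ndufb4 had 11.1 and 8.21 (chr16:37653994-37654548). Ndufv2 had 13.0 and 8.0, with the largest replicate 1 pileup of these 4, 30 tags, against 14 in replicate 2. Its summit lay 12 bp before the start (chr17:66101065-66101877). The weakest were Ndufa4l2 (3.6 and 4.3) and Ndufv3 (8.66 and 3.71). Ndufv1 (8.30), which encodes the NADH-binding subunit, had a peak in replicate 1 alone, and Ndufs8 (3.31) in replicate 2 alone. Ndufa11 and Ndufa12 were without a reproducible peak, and Ndufa12 had one in replicate 1 (4.96).

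Of the complex I assembly factors, Ndufaf2 had the highest lower fold, with 10.0 and 6.25, beside the DNA repair gene Ercc8. Ndufaf5 had 8.82 and 5.74, Ndufaf6 10.3 and 4.97, and Ndufaf4 6.47 and 4.46. Ndufaf7, a methyltransferase, had 4.70 and 3.83, and Ndufaf3 had 4.81 and 3.98. Ndufaf1 and Ndufaf8 had none. All 6 peaks were higher in replicate 1 than in replicate 2. Folds are not scaled between libraries, so this order carries no comparison of the replicates.

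Complex III contained the strongest peak of all members by the lower fold. Uqcrfs1 had 11.0 and 10.1, with pileups of 21 and 16 and widths of 653 and 525 bp (chr13:30544844-30545496). Its summit lay 217 bp inside the gene. Uqcrq had 7.09 and 7.35, beside Gdf9. The core subunit Uqcrc2 had 8.82 and 6.38, the hinge protein Uqcrh 8.30 and 6.23, and the core subunit Uqcrc1 8.14 and 5.10. The Uqcrh peak was the widest of the respiratory set in replicate 1, 1229 and 1097 bp, followed by Ndufa13 (1210 and 801 bp) and Cox4i1 (1048 and 907 bp). Uqcr10 and Uqcr11 had no reproducible peak, and Uqcrb had one in replicate 2 alone (3.19, a pileup of 4 tags).

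In complex IV, which reduces oxygen, peaks were found at widely expressed subunits. Cox6c had 8.13 and 8.29 (chr15:35937579-35938135), Cox6a1 had 7.74 and 7.25 (chr5:115348646-115349240), Cox4i1 had 6.76 and 7.34, and Cox5b had 10.5 and 6.38. Cox8a had 10.4 in replicate 1 and 4.81 in replicate 2, and Cox7a2l, a factor of supercomplex assembly, had 8.30 and 5.74. Cox4i1 shares its peak with Emc8, a subunit of a membrane protein insertase, and was the only Cox gene of the 7 whose peak was also at another gene's end. Isoforms known from restricted tissues or conditions were mostly without a reproducible peak, at 1 of 8 (12.5%), against 52.4% of all genes. The exception was Ndufa4l2, known for its induction in low oxygen, and its peak was shared with Stac3, a muscle gene. Cox4i2 (4.43), the muscle form Cox6a2 (5.07) and the testis form Cox8c (8.23) had a peak in replicate 1 alone. Cox6b2, Cox7a1, Cox7b2 and Cox8b had none in either library. Of the other 11 Cox genes, 7 had a reproducible gene-end peak and Cox5a, Cox6b1, Cox7a2 and Cox7b did not. Cox5a and Cox7a2 had a reproducible peak near a RefSeq start instead. The isoform list is short and was drawn up with earlier results known, so its count is a description.

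ATP synthase had 14 of 17 genes with a reproducible peak. Atp5j, a stalk subunit, had folds of 9.81 and 7.86 (chr16:84835193-84835881), and the same peak lies at an end of Gabpa. Gabpa encodes the DNA-binding subunit of GABP. The catalytic-head subunit gene Atp5a1 had 8.99 and 7.46 and shares its peak with Haus1, a spindle gene. Atp5e had 12.3 and 6.74 (chr2:174463582-174464299), and Atp5c1, the gene of the central-shaft gamma subunit, had 6.38 and 6.71. Atp5d, which encodes another shaft subunit, had the lowest lower fold of the class, 3.61 in replicate 1 and 4.61 in replicate 2, with pileups of 24 and 21 tags. Its summit lay at -2904 bp relative to the listed start and within 1 kb of the annotated gene end. Next came 4.46 in replicate 2 at Atp5b, the catalytic beta subunit, Atp5g1 and Atp5pb. Atp5j2 and Atp5k had no reproducible peak by either rule of position.

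Annotated gene ends do not always match the listed starts, and this moved 5 members. Starts were listed for 144 of the 170. A reproducible peak lay within 1 kb of a listed start, but of neither gene end, at Cox5a (9.09 and 8.68, 31 bp from the start), Atp5g3 (9.43 and 8.36, 147 bp), Mrps2 (6.04 and 5.67, 27 bp), Cox7a2 (5.88 and 4.46, 85 bp) and Mrpl18 (7.89 and 6.74, 648 bp). Cox5a and Atp5g3 would stand at the top of their classes. With either kind of end, 124 members had a reproducible peak. No share over all genes is given for this union, so the count has no comparison. Around listed starts alone the shares were 71.0% in the mitochondrial ribosome (49 of 69) and 69.3% in respiration (52 of 75), against 54.3% of all 17492 genes with a listed start.

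The peaks sat at starts rather than at the other end. Of the 102 members with a gene-end peak and a listed start, 98 had the summit nearer the start end (96.1%), against 92.2% of all genes. The 4 others were Mrpl2, Mrps12, Ndufa3 and Ndufb10. The summit was within 250 bp of the start at 31 of 49 mitochondrial ribosome genes (63.3%) and 42 of 53 respiratory genes (79.2%), against 60.7% of all genes. It lay downstream at 64 of 102 members and upstream at 38, against 6223 and 2903 of 9135 among all genes. The median summit position was 33 bp and 74 bp downstream in the mitochondrial ribosome and respiratory genes, against 99 bp in all genes. Fewer members than other genes held a peak in the gene body away from ends, 12.9% against 33.9%, and members are shorter. Mrps28 held 4 such peaks and Ndufa12 held 2. A no-antibody summit lay inside 4 members, Mrps28 and Ndufa12 among them, with Ndufaf6 and Cox7b2. No share over all genes is given for this count. The body peaks counted here overlap no no-antibody peak.

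**Figure D4:**
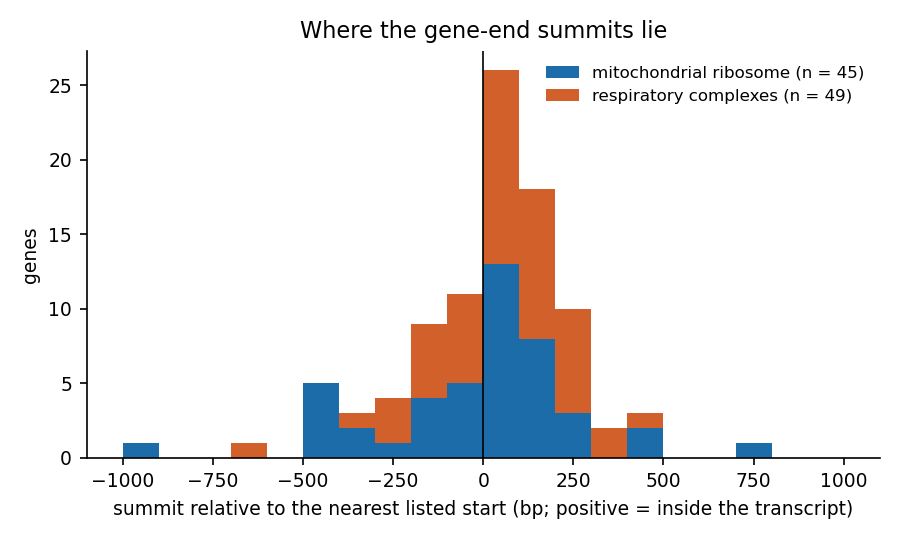
Histogram of the summit position relative to the nearest listed start (horizontal, bp, positive inside the transcript) of gene-end peaks, stacked for 45 mitochondrial ribosome and 49 respiratory genes. The summits pile up around the start, and 8 of 102 genes lie outside the 1 kb range drawn.

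Many of the peaks could be assigned to a neighbour as well as to the member. At 59 of 119 members (49.6%) the summit also lay within 1 kb of an end of another protein-coding gene, against 22.3% at all genes and 23.3% at cytosolic ribosomal genes. The shares were alike in the mitochondrial ribosome (27 of 55, 49.1%) and in respiration (32 of 64, 50.0%). The arrangement of the genes differed in the same direction. Of all 170 members, peaks aside, 95 (55.9%) have another protein-coding gene's end next to one of their own, against 24.8% of all genes. Members with such a neighbour had a reproducible peak in 72.6% of cases and members without one in 66.7%, while over all genes the shares were 70.5% and 46.4%. The groups ran in opposite directions, with 68.2% and 73.5% in the mitochondrial ribosome and 76.5% and 61.0% in respiration, and this difference was not tested. Among genes with no close neighbour, the members therefore stood at 66.7%, against 46.4% of all.

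In 3 cases both genes at the shared peak were members. Mrpl36 and the complex I gene Ndufs6 share chr13:73328237-73328629 (6.95 and 6.94). Mrpl47 and the complex I gene Ndufb5 share chr3:32736856-32737598 (6.30 and 4.30). Mrpl46 and Mrps11, of the large and small subunit, share chr7:78782851-78783219 (6.47 and 5.10). These 3 peaks are each counted for both genes, so the 119 genes rest on 116 peaks. Which of the genes at a shared end a peak belongs to cannot be told apart from these files.

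Of the members with a peak in 1 MEIS2 library only, 16 had it in replicate 1 (9.41% of members, against 7.88% of all genes) and 2 in replicate 2 (1.18%, against 2.78%). The 16 had a median fold of 5.14 (4.12 to 8.30) and a median pileup of 10 tags, against a replicate 1 median of 7.64 and 15 tags at members with a reproducible peak. A gene-end peak was found in neither library at 32 members (18.8%), against 36.7% of all genes.

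Promoter windows of the members held letters of the known mitochondrial gene regulators more often than other windows did. The windows run from 250 bases before to 50 after each listed start, 155 windows of the 144 members and 21263 of all genes. ETS letters were in 34.7% of mitochondrial ribosome windows and 21.2% of respiratory windows, against 11.6% of all. NRF1 letters were in 9.33% and 12.5%, against 2.35%. YY1 letters were in 16.0% and 13.8%, against 3.05%, and 17 of the 23 matches in members began after the start. At least 1 of these 3 motifs was in 70 of 155 member windows (45.2%), against 15.8% of all. SP letters were in 42.7% and 33.8%, against 33.9%. CCAAT was in 40.0% and 41.2%, against 38.2%. These shares are descriptions, and no test of them was made.

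The MEIS core was near the all-gene share. It was in 16 of 75 mitochondrial ribosome windows (21.3%) and 19 of 80 respiratory windows (23.8%), against 18.7% of all. The composite with PBX was in 0 of 155, against 0.447%. Among members, the core was in 23.2% of windows of genes with a gene-end peak and 20.9% of windows of genes without. Over all genes these were 16.5% and 21.2%. Genes were sorted here by the gene-end rule, not by a peak in the window itself. Those without thus include Cox5a, Atp5g3, Mrps2, Cox7a2 and Mrpl18, which had a reproducible peak near a listed start. Those with include genes such as Atp5d and Mrpl2, whose summit lay over 1 kb from the listed start. SP letters were in 45.5% of windows of members with a gene-end peak and 18.6% of those without. Over all genes they were in 48.7% and 16.9%. ETS letters ran the other way in members, in 25% of windows of genes with a gene-end peak and 34.9% of windows of genes without. Over all genes these were 15.6% and 6.91%. NRF1 letters did so too, in 9.82% and 14.0%, against 3.61% and 0.907% over all genes. Members with a peak also had a higher median G+C, 60.3% against 55.0%, as did all genes, 62.0% against 50.0%, and the part of base composition in the motif shares was not tested. These windows are not the peaks themselves, and a match is neither a bound site nor a cause.

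**Figure D5:**
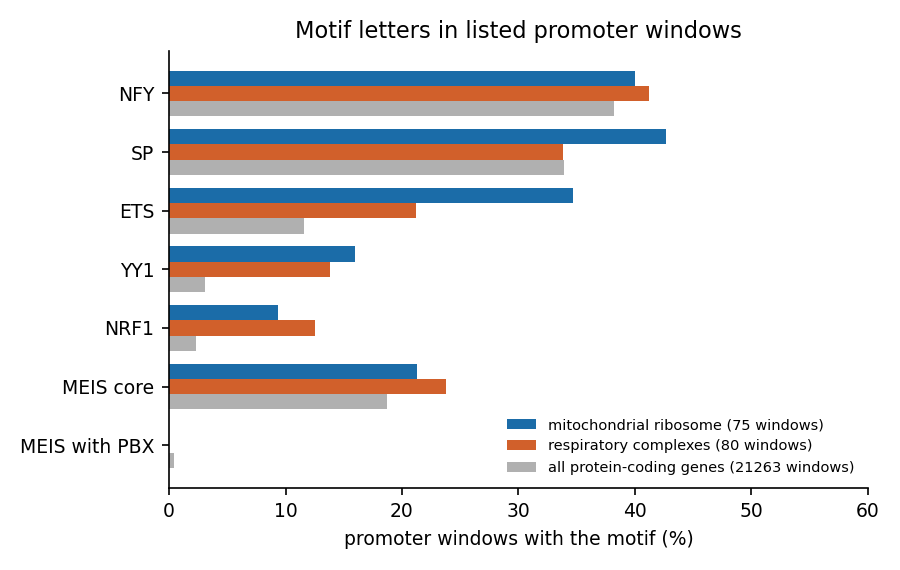
Percentage of promoter windows with an exact match on either strand (horizontal) for 7 motifs, in 75 mitochondrial ribosome windows, 80 respiratory windows and 21263 windows of all protein-coding genes. ETS, YY1 and NRF1 bars are longer in both member groups than in all genes, and the MEIS core bars are of similar length.

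Other genes of the same systems, grouped in lists by function, had shares between 52.9% and 91.7%, against 52.4% of all genes. Complex II and cytochrome c, which have other symbols, had a reproducible peak at 6 of 7 genes, led by Sdhd (8.23 and 8.29) and Cyc1 (7.18 and 7.68), with Sdhc the one without. Assembly factors of complexes III and IV had 18 of 25, led by Ttc19 (9.45 and 8.76) and Cox11 (8.05 and 10.5), with none at Coa3 and Cox16. Complex I assembly factors outside the Ndufaf symbols had 7 of 8, led by Nubpl (9.41 and 9.56) and Acad9 (8.82 and 8.93), with none at Dmac1. Genes for mitochondrial DNA and its transcription had 11 of 15, led by Mterf3 (9.75 and 9.90) and the protease gene Lonp1 (7.96 and 8.27), with none at Mterf4 and the polymerase gene Polg. The medians of the lower fold were 6.38, 5.48, 6.38 and 6.38 in these 4 lists, against 6.38 for all genes.

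On the translation side, factors had 7 of 10, led by the release factor gene Mtrf1l (7.43 and 8.67) and the recycling factor gene Mrrf (10.0 and 6.38), with none at Mtif2 and Mtif3. Ribosome proteins with other symbols had 4 of 5, led by Dap3 (8.56 and 9.30) and Gadd45gip1 (12 and 6.93), with none at Ptcd3. The mitochondrial tRNA synthetases had 9 of 17, or 52.9%, close to the 52.4% of all genes. Yars2 (9.12 and 7.95) and Fars2 (8.17 and 7.88) led them, Aars2 was among the 8 without, and 1 gene of this list had a no-antibody gene-end peak. Of 12 regulators of these genes, 11 had a reproducible peak. Sp1 (8.70 and 9.61) and Nrf1 (9.32 and 8.47), which encode factors whose motif letters were searched above, led that list, and Gabpb1 had none.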

How the data were processed

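CUT&Tag peak tables of 2 MEIS2 libraries and 1 no-antibody library were used, grouped by their labels. Per the file headers, MACS 2.2.7.1 called peaks in each library alone, with no control, a q cutoff of 0.05 and 1 tag per position. Per the submitters' processing notes, the build was mm10 and the tools were Bowtie2 2.3.4, Trimmomatic, Picard and MACS2 2.1.4, a version that differs from the headers'. The caller's redundant rates were 0.90, 0.92 and 0.91. Pileup, a deposited signal, is unscaled. Fold enrichment, a deposited ratio, is defined in the results. The deposited −log10 p-value and q-value and the widths are the caller's. The smallest width a peak can have follows the fragment length it estimated, 172, 162 and 233 bp. Folds are not scaled between libraries. The lower fold of the replicates served to rank genes, and the fold and width medians of each library are given as well.

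Gene ends came from a RefSeq table of GRCm38.p6, the assembly behind mm10, which gives no strand. Starts and sequences came from RefSeq promoter windows of the same build. Each gene took its reproducible gene-end peak with the highest lower fold of the replicates, and its width in replicate 1. Exons and introns were not distinguished. No p-value was computed, since genes are not replicates and the control is 1 library. Intervals are 95% Wilson intervals, except the upper limit for 0 members, which is 3 counts out of all members. The overlap code was tested on simulated peaks, with Python 3.11.15 and pandas 2.3.3.

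The members, gene lists and motifs were chosen with earlier results of these data known. Named genes follow a rule. In each class it takes up to 4 with the strongest and 2 with the weakest peak, 2 without, and 2 with a peak in 1 library. It adds restricted isoforms, the 3 widest of each group, member pairs sharing a peak and, in each related list, 2 strongest and 2 without. Mrpl15, Mrpl43, Mrps6, Mrps7, Mrps17, Mrps26, Ndufv1, Ndufs8, the Ndufaf genes beyond the rule, the remaining Uqcr, Cox and Atp5 genes and those with a peak only at a listed start were named after their values were seen. Genes that the rule names and the text does not are not reported here. Settings tried were the overlap, the q-value, the distance, the listed start, the no-antibody overlap, shared ends, member lists, the strongest peaks and each replicate left out. The replicate 2 width and the union of gene end and listed start were added after seeing the data.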

Additional observations from a re-analysis of the deposited data

How the results depend on the processing

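The counts of 55, 64 and 119 genes (mitochondrial ribosome, respiration, all members) stayed within 1.5 times under 50% reciprocal overlap, other distances, listed starts, no-antibody overlap kept and restricted members left out. They came to 4, 7 and 11 with the 20000 strongest peaks per replicate. With shared ends left out, where only genes with a peak could be dropped, fewer genes remained. The counts were then 28 of 51 mitochondrial ribosome genes (54.9%), 32 of 60 respiratory genes (53.3%) and 60 members in all. With −log10 q of at least 5, respiration had 38 and all members 75. Leaving out 1 MEIS2 replicate gave 56 to 66, 66 to 70 and 122 to 136. No share over all genes is given for reciprocal overlap, other distances, the stricter q, the strongest peaks or shared ends left out. Counts under those settings therefore have no comparison.

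The share difference of 0.948 points was -0.502 at 50% reciprocal overlap, -4.49 without assembly factors and restricted isoforms, -2.48 with the 20000 strongest peaks, 6.13 with the stricter q, 3.21 and 2.54 within 2.5 kb and 500 bp, and 0.0557 to 8.53 with 1 replicate left out. The fold difference of 0 was 0.145 at 50% reciprocal overlap, 0.216 with the stricter q, 0.612 without shared ends, 0.723 with the 20000 strongest peaks, and -0.177 to 0 with 1 replicate left out. The width difference of -12.5 bp was 18.5 at listed starts, 26 with the 20000 strongest peaks, -35 at 50% reciprocal overlap, 42.5 with the replicate 2 width (an alternative added after seeing the data), and -31 to 69.5 with 1 replicate left out. The cause of these changes was not tested. No paired analysis was possible because the control is 1 library. The caller dropped most tags as repeats (redundant rates of 0.90 to 0.92), and the part of depth in calls made in 1 library only was not tested.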
